A study of Mus musculus with 10 samples.

Results

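Mouse embryonic stem cells (ESC) and embryoid bodies (EB), the aggregates in which such cells differentiate, were compared in the absence of Mettl3, over every listed RNA site with a cleavage efficiency in both knockout (KO) columns. These were 845 of the 1626 sites in the deposited table, chosen only by having both values. The ESC KO column stands for 3 polyA RNA libraries and the EB KO column for 2, all with the genotype spelled Metll3-/- in the labels; the wild-type (WT) columns used beside them stand for 3 ESC and 2 EB libraries. The table gives 1 value per site and group. A column therefore has no replicate spread, no test could be made, and the number of reads behind a value is unknown. ESC were expanded on inactivated feeder fibroblasts in serum with the cytokine LIF and then kept on gelatin in serum-free N2B27 medium with LIF, CHIR99021 and PD0325901. EB were grown from ESC in suspension for 9 days in serum medium without LIF or the inhibitors, so stage and medium cannot be told apart. The labels used here do not state the strain, the number of KO clones or whether libraries came from separate cultures. Cell identity and the loss of Mettl3 were not checked, because the table holds no expression values.

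Mettl3 is the catalytic subunit of the complex that places N6-methyladenosine (m6A) on messenger RNA, mostly in the sequence context of an A before a C. MazF, a bacterial RNase, cleaves at ACA unless the first A carries m6A, so an uncut ACA can report methylation. Without the methyltransferase nearly all such methylation of messenger RNA is missing. As further background, stem cells without Mettl3 are known to leave the naive pluripotent state poorly, and how far the KO embryoid bodies had differentiated was not measured here. The enzyme is not named in the labels used here. A cleavage efficiency of 0 means that no cut was recorded and 1 that all was cut.

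The sequences at both ends of the scale show a pattern that held at many of the sites but not at all of them. Each is the deposited 11-base sequence, 5′ to 3′, with the cut motif ACA and the base after it in capitals, and coordinates are those of the mm9 genome. Among the 12 named genes with the lowest mean over both KO columns, the base after ACA was guanine in every one but Cgas, the gene of a cytosolic DNA sensor. The following 7 were at 0 in both KO columns.
Med13l CDS, chr5:119178661-119178671, plus strand: agaggACAGaa
Zfp36l1 CDS, chr12:81210926-81210936, minus strand: gctggACAGcc
Casc4 3′ UTR, chr2:121760888-121760898, plus strand: aagggACAGtt
Scamp4 3′ UTR, chr10:80077844-80077854, plus strand: agtggACAGtc
Ttc4 3′ UTR, chr4:106335635-106335645, minus strand: cagggACAGtg
Abcc1 3′ UTR, chr16:14473855-14473865, plus strand: ggaagACAGat
Cgas CDS, chr9:78290729-78290739, minus strand: cggggACACca
At the other end stood Tanc1 and Twistnb, the latter a subunit gene of RNA polymerase I, at 1 in both columns. Dcp2, an mRNA decapping enzyme gene, was at 0.985 in ESC and 1 in EB, and Akap2 at 0.979 and 1. Ap3b1, the last of the 5 named genes with the highest KO mean, was at 1 in ESC and 0.979 in EB. Its site had guanine after ACA, so this base also occurred among the most cut sites.
Tanc1 CDS, chr2:59681778-59681788, plus strand: catggACAAga
Twistnb CDS, chr12:34122735-34122745, plus strand: aacagACATac
Akap2 CDS, chr4:57868099-57868109, plus strand: cgaggACAAga

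Cutting without Mettl3 was close to the same in both stages. The median efficiency over the 845 sites was 0.821 in ESC (interquartile range over sites 0.462 to 0.918) and 0.813 in EB (0.465 to 0.914). EB was higher at 407 sites, lower at 416 and equal at 22. The median difference, EB minus ESC, was 0 (interquartile range −0.0434 to 0.0376), and the absolute difference was at most 0.166 at 95% of them. Across sites, which share both columns and are no replicates, Pearson's r between the levels was 0.969 and Spearman's rank correlation 0.899. A difference of at least 0.10, used below as the size that counts as higher or lower, was reached upward at 60 sites (7.1%) and downward at 94 (11.1%). This split depended on centring: with each column's median subtracted it was 75 up and 73 down. No site went from under 0.20 in one stage to 0.80 or more in the other.

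**Figure D1:**
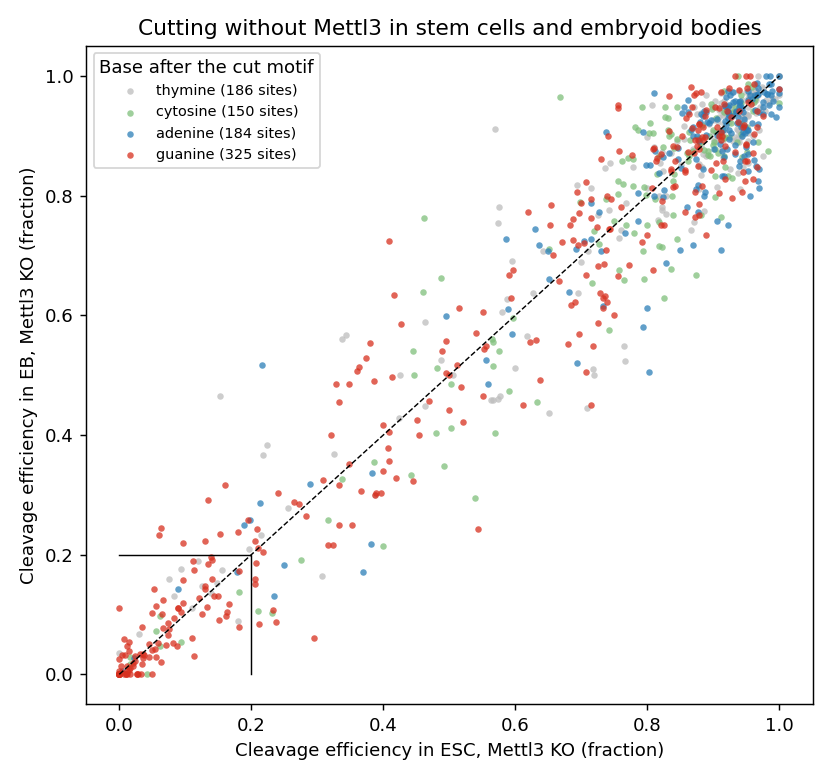
Cleavage efficiency (fraction) without Mettl3 in ESC (horizontal axis) and in EB (vertical axis) at 845 sites, each a point colored by the base after the cut motif; the dashed line marks equal values and the corner lines the limit of 0.20. The 120 sites in the lower left corner are mostly red, with guanine after the motif at 94 of them, while the sites with adenine gather at the upper right.

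The differences between stages were smallest where cutting was nearly absent or nearly complete. Part of this was fixed in advance, because fractions end at 0 and 1. A KO mean near either end leaves room only for a small difference between the same columns. The median absolute difference was 0.0112 for the 85 sites with a KO mean under 0.1 and 0.0262 for the 258 sites at 0.9 or more. Between them it was 0.0805 for the 74 sites with a mean of 0.4 to 0.6 and 0.0705 for the 129 sites with 0.6 to 0.8. The mid-range sites also held many of the differences past 0.10, with 30 of the 60 upward and 46 of the 94 downward lying between 0.4 and 0.8. The depth behind these values is unknown, so error and stage cannot be told apart within this spread.

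The largest upward difference at a site with a named gene was in Sord, the gene of sorbitol dehydrogenase, which was at 0.408 in ESC and 0.723 in EB. A site of the ubiquitin ligase gene Nedd4 was at 0.152 and 0.465. Abr was at 0.216 and 0.517. The kinetochore gene Pmf1 was at 0.462 and 0.762, in a transcript without a coding sequence (CDS). These 4 sites differed by about equal amounts and were cut to less than 0.5 in ESC. Choosing the largest rises selects low ESC values, so part of this was fixed by the choice. Hnrnpul1, an hnRNP U-like protein gene, was at 0.667 in ESC and 0.964 in EB. Bcar1, an adaptor of focal adhesions, was at 0.343 and 0.568, and B4gat1, a glycosyltransferase that modifies dystroglycan, at 0.338 and 0.561. The small GTPase gene Arf4 was at 0.417 and 0.633. Rragb, a Rag GTPase of amino acid signalling to mTORC1, was at 0.574 and 0.781. Gna13, a G protein subunit gene, was at 0.756 and 0.951, and Vps4b, an ATPase gene of the ESCRT pathway, at 0.756 and 0.946. The last of the 12, Errfi1, an inhibitor of the EGF receptor, was little cut in both, at 0.0638 and 0.245. The sequences of 4 of these sites are given because their WT values, described further on, set them apart.
Nedd4 CDS, chr9:72510369-72510379, plus strand: ctcggACATgg
Arf4 5′ UTR, chr14:27457792-27457802, plus strand: gcgagACAGgt
Errfi1 CDS, chr4:150240529-150240539, plus strand: tcgggACAGcg
Hnrnpul1 CDS, chr7:26539588-26539598, minus strand: cctggACACtc

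Downward, the largest difference was in Atad5, which encodes an unloader of the replication clamp PCNA. Its CDS site was at 0.543 in ESC and 0.242 in EB, and a second CDS site of the same gene was at 0.708 and 0.444. Cuedc2 had a 5′ UTR site at 0.802 and 0.505. The ubiquitin ligase gene Rnf185 had a 3′ UTR site at 0.538 and 0.294, and a site assigned to Npcd was at 0.766 and 0.524. Tars2, the mitochondrial threonyl-tRNA synthetase gene, was at 0.295 and 0.0606. The mitotic kinesin gene Kif14 was at 0.719 and 0.5, Glg1 of the Golgi at 0.764 and 0.549, and the prohibitin gene Phb2 at 0.650 and 0.437. The kinase gene Wnk1 was at 0.793 and 0.581, Cyb5b of the mitochondrial outer membrane at 0.718 and 0.510, 9530068E07Rik at 0.873 and 0.667, and Gprasp1, a sorting protein of G protein-coupled receptors, at 0.707 and 0.506. All of these 12 sites but that of Tars2 were cut to over 0.5 in ESC. Part of this was fixed by the choice, because the largest falls select high ESC values.
Atad5 CDS, chr11:79908277-79908287, plus strand: caaagACAGca
Atad5 CDS, chr11:79926288-79926298, plus strand: gaaagACATaa
Tars2 5′ UTR, chr3:95558761-95558771, minus strand: ttgagACAGca
Phb2 5′ UTR, chr6:124662448-124662458, plus strand: atcagACATgg

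**Figure D2:**
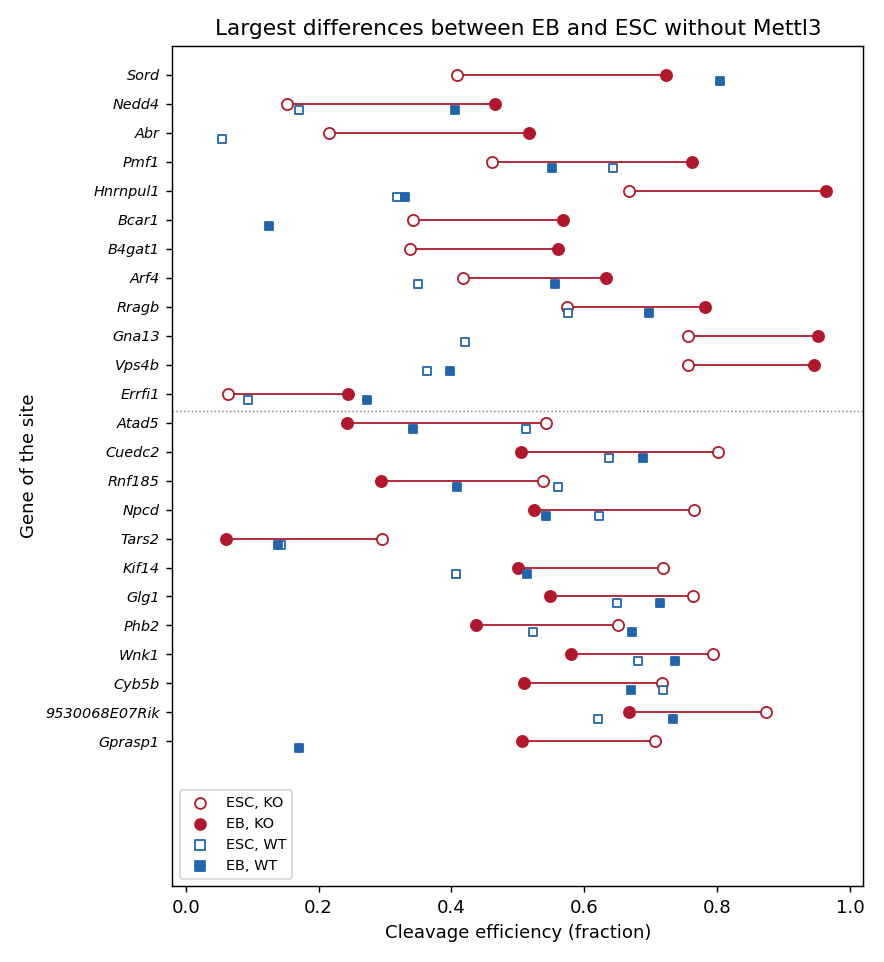
Cleavage efficiency (fraction, horizontal axis) at the 12 largest upward (above the dotted line) and 12 largest downward differences without Mettl3, 1 site per gene, with KO as red circles joined by a line, WT as blue squares, ESC open and EB filled; a missing square is a value not listed. Sord heads the upper group at 0.408 and 0.723 and Atad5 the lower at 0.543 and 0.242, and at Nedd4, Arf4 and Errfi1 the WT squares lie near the KO circles of the same stage.

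The named sites nearest to the size of 0.10 were chosen for lying close to it. Just inside upward lay Hes1, a repressor in Notch signalling, at 0.101, and just outside Bend3 at 0.0990. Downward, Srp68, a protein of the signal recognition particle, differed by −0.100 and Uri1 by −0.0988.

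The same sites showed a different picture with Mettl3 present. Both WT values were listed for 759 of the 845 sites. At these, EB was higher than ESC by at least 0.10 at 48 sites and lower at 85 in KO, against 192 higher and 37 lower in WT. Over all 1071 sites with both WT values the shares were 26.4% higher and 5.51% lower. The median difference at the 759 sites was 0.0414 in WT (interquartile range −0.000373 to 0.101) and 0 in KO (−0.0429 to 0.0353). EB was above ESC in WT at 555 of the 759 sites and in KO at 365. With a KO mean under 0.1 the median WT difference was 0.000476 over 75 sites. It was 0.0678 over the 115 sites with a KO mean of 0.6 to 0.8. The WT direction depended on the scaling, since subtracting the column medians gave 52 higher and 180 lower sites and a median of −0.0549. The difference between the genotypes was not tested, as no column has replicates.

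**Figure D3:**
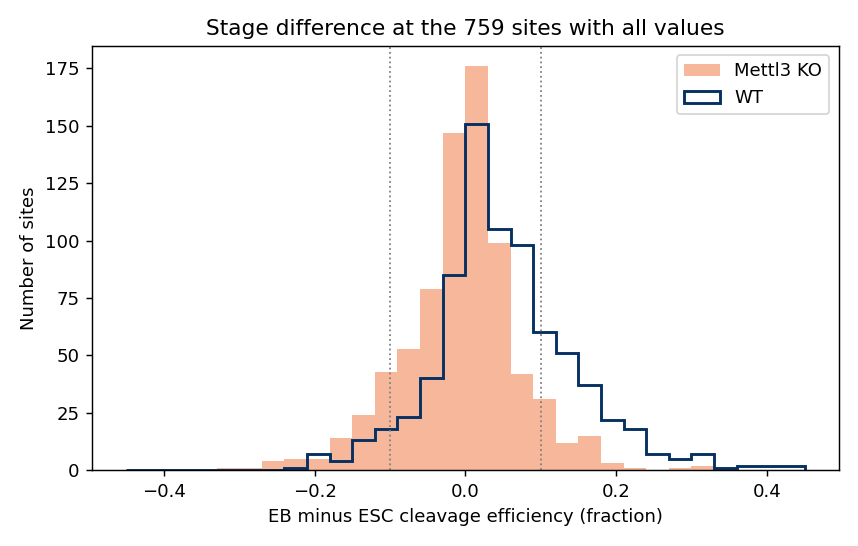
Number of sites (vertical axis) by the EB minus ESC difference in cleavage efficiency (fraction, horizontal axis) in KO, filled, and in WT, outlined, for the 759 sites with all 4 values; dotted lines mark 0.10 in either direction. The KO distribution is centred on its median of 0 and the WT distribution, with a median of 0.0414, has a longer right side. With column medians subtracted, which also removes any shift common to a whole column, the WT median becomes −0.0549.

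**Figure D4:**
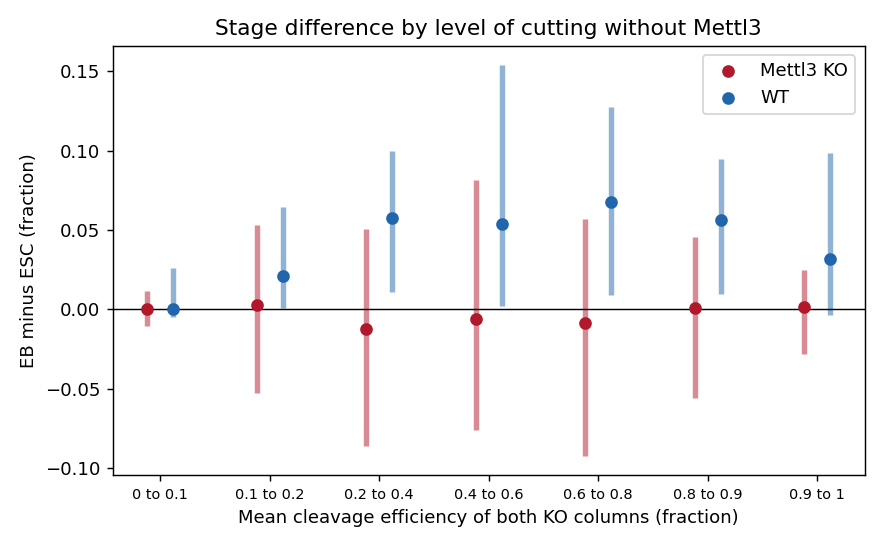
EB minus ESC difference (fraction, vertical axis) by the mean efficiency of both KO columns (fraction, horizontal axis), where points are medians over sites and bars span the quartiles, for KO in red and WT in blue, as deposited. KO medians lie between −0.0123 and 0.00255 in all 7 bins, while WT medians run from 0.000476 in the lowest bin to 0.0678 in the bin of 0.6 to 0.8.

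Some sites differed between stages in both genotypes. There were 22 higher in EB by at least 0.10 in both, which was 45.8% of the 48 KO sites and 11.5% of the 192 WT sites, beside 25.3% of all 759 sites that were higher in WT. Nedd4 was at 0.171 in ESC and 0.405 in EB in WT, near its KO values of 0.152 and 0.465. Arf4 was at 0.350 and 0.556 in WT and Errfi1 at 0.0930 and 0.273. The dynein light chain gene Dynll2 had a 5′ UTR site at 0.382 and 0.540 in WT and 0.379 and 0.554 in KO. At these 4 sites the WT values lay near the KO values of the same stage. Ndc1, a nuclear pore membrane protein gene, was at 0.223 and 0.383 in KO and 0.291 and 0.527 in WT. Mdk, the gene of the growth factor midkine, was at 0.347 and 0.485 in KO and 0.388 and 0.554 in WT. The farnesyltransferase subunit gene Fnta differed by 0.159 in KO and 0.422 in WT. Tut4, a uridylyltransferase of RNA 3′ ends, differed by 0.180 and 0.118, the splicing factor gene Cdc5l by 0.174 and 0.251, and Pus7, a pseudouridine synthase, by 0.157 and 0.168. Further sites higher in both were in Rragb, Me2, Dbnl, Eml4, Zc3h11a, Pcmtd1, Chd4, Smarca5 and Hes1.

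Downward, both genotypes differed by 0.10 or more at 9 sites, which was 10.6% of the 85 KO sites and 24.3% of the 37 WT sites, beside 4.87% of all 759 sites that were lower in WT. The Atad5 site named first was at 0.512 in ESC and 0.343 in EB in WT, and the Rnf185 site at 0.560 and 0.408. Wdr24, of the GATOR2 complex in mTORC1 signalling, differed by −0.144 in KO and −0.200 in WT, and Fam98a by −0.136 and −0.105. Dcaf8, a substrate receptor of a CUL4 ubiquitin ligase, differed by −0.116 and −0.184, and Prps1l3 by −0.112 and −0.136. Opposite directions past 0.10 were also seen. Of the 85 sites lower in KO, 21 were higher in WT, beside 25.3% of all 759 sites. Of the 48 sites higher in KO, 3 were lower in WT, beside 4.87% of all 759. Both counts lay near those shares. Across the 759 sites the KO and WT stage differences, which share no column, had a weak correlation, with 0.136 as Pearson's r and 0.109 as Spearman's rank correlation.

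At other sites the stage differences of KO and WT lay far apart; this gap was not tested. Hnrnpul1, 0.297 higher in EB without Mettl3, was at 0.318 and 0.331 in WT, and Vps4b, 0.190 higher, was at 0.364 and 0.397. Pmf1 was 0.30 higher in KO and differed by −0.0928 in WT. Ranbp2, a nucleoporin gene, was at 0.373 and 0.528 in KO and at 0.495 and 0.321 in WT. Tfdp2, a partner of E2F factors, differed by 0.0804 and −0.218, and the corepressor gene Tle4 by 0.161 and −0.109. The reverse held at Mdm2, the ubiquitin ligase of p53, whose CDS site was at 0.947 and 0.929 in KO and at 0.347 and 0.767 in WT. Fnbp4 differed by −0.0367 in KO and 0.407 in WT, Scaf11 by −0.0598 and 0.387, Kctd10 by −0.0604 and 0.318, and Cenpl of the centromere by −0.161 and 0.285. Phb2 and Kif14, lower by 0.213 and 0.219 on the fraction scale without Mettl3, were higher by 0.149 and 0.107 with it.

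A part of the sites stayed uncut in both stages although the methyltransferase was absent. Of the 845 sites, 120 (14.2%) were under 0.20 in both KO columns, here called little cut, and 412 (48.8%) were at 0.80 or more in both. Only 13 further sites were under 0.20 in ESC KO alone and 14 in EB KO alone. In 15 sites both KO values were 0, 13 of them with guanine after ACA, and 7 sites were at 0 in all 4 columns. Just inside the limit lay D030056L22Rik, at 0.139 in ESC and 0.196 in EB, and just outside a CDS site of Mtf1, at 0.205 and 0.159.

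The WT values of the little-cut sites were low too. Their median was 0.0286 in ESC WT (112 sites) and 0.0357 in EB WT (111 sites), beside 0.0492 and 0.0480 in the KO columns. Of the 108 such sites with both WT values, 98 were under 0.20 in WT too. Med13l, a subunit of the Mediator kinase module, Zfp36l1, a protein that binds AU-rich elements, Casc4, Scamp4 and Ttc4 were at 0 in all columns. Abcc1, a multidrug transporter gene, was at 0 in 3 columns and at 0.0204 in EB WT. Clstn3, a calsyntenin gene, was at 0 except for 0.0200 in ESC WT. Pygb, a glycogen phosphorylase gene, had no EB WT value, 8430429K09Rik had no WT value, and their listed values were 0. The initiation factor gene Eif5 had a 5′ UTR site at 0 and 0.00490 in KO and 0.00912 and 0.00852 in WT. Mtf1, a metal-responsive transcription factor, had a 5′ UTR site at 0.0163 and 0 in KO and 0 and 0.0267 in WT. By the mean of both WT columns, the little-cut site with a gene name that was cut most in WT was in Ccnd1, the gene of cyclin D1, at 0.217 in ESC and 0.235 in EB, against 0.139 and 0.136 in KO. Zbed6, a gene nested in Zc3h11a whose reads cannot be told from that gene's here, was at 0.286 and 0.156 in WT, Fbxo21 at 0.194 and 0.246, Alkbh1, a dioxygenase gene, at 0.135 and 0.275, and the protein disulfide isomerase gene Pdia6 at 0.239 and 0.131.

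Low cutting in WT was often present without Mettl3 at the same site. Of the 231 sites under 0.20 in ESC WT, 117 (50.6%) were also under 0.20 in ESC KO, and 40 (17.3%) reached 0.80. In EB, 113 of 197 such sites (57.4%) were under 0.20 in KO and 29 (14.7%) reached 0.80. Where guanine followed ACA these shares were 92 of 150 sites in ESC (61.3%) and 88 of 130 in EB (67.7%). With adenine there were 5 of 16 in ESC and 4 of 10 in EB. Over all 845 sites, whatever the WT value, 15.7% were under 0.20 in ESC KO and 15.9% in EB KO. Among all sites with guanine after ACA the shares were 31.7% and 31.1%, and with adenine 3.26% and 3.80%.

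Of the bases examined singly, the one after ACA divided little-cut sites most unevenly. Of the 325 sites with guanine there, 94 (28.9%) were little cut and the median KO mean was 0.547. Of the 184 with adenine 4 (2.17%) were little cut, with a median of 0.902. Cytosine had 10 of 150 (6.67%) and a median of 0.835, and thymine 12 of 186 (6.45%) and 0.883. Both stages showed it alike, with guanine medians of 0.543 in ESC and 0.548 in EB and adenine medians of 0.914 and 0.901. The sites left out for lack of an EB KO value gave an additional 379 values in ESC KO. There 40 of 148 sites with guanine (27.0%) were under 0.20 and 7 of the other 231. In the 73 sites with an EB KO value alone the shares were 2 of 24 with guanine and 3 of 49 with another base, while the medians were 0.712 and 0.914.

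Bases before the motif were distributed less unevenly. Sites with guanine as the third base of the 11 were little cut in 48 of 208 cases (23.1%), against 30 of 287 (10.5%) with adenine, 23 of 143 (16.1%) with cytosine and 19 of 207 (9.18%) with thymine. The fourth base, which makes the site GGACA or AGACA, gave 82 of 530 (15.5%) and 38 of 315 (12.1%). With guanine after ACA this difference was larger, at 66 of 194 (34.0%) for GGACA and 28 of 131 (21.4%) for AGACA. The shares for each choice of base at the 4 remaining variable positions lay between 10.2% and 20%.

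The share of little-cut sites also differed with GC content where guanine followed ACA. Counted within 50 bases of the site in the matched transcript, the share with guanine was 9 of 59 (15.3%) at a GC content of up to 47.5%, and it was 13 of 65 (20%), 20 of 70 (28.6%) and 31 of 78 (39.7%) in the following bins, the last above 59.4%. With another base the shares were 5.63%, 3.85%, 2.59% and 3.09%. The level of cutting was lower at high GC content with either kind of base. From the lowest to the highest bin the median KO mean went from 0.845 to 0.255 with guanine and from 0.897 to 0.810 with another base. The share at 0.80 or more in both KO columns went from 52.5% to 12.8% and from 72.5% to 44.3%. Over the 731 sites with a matched transcript the KO mean and GC content had a Spearman rank correlation of −0.290, which is a description across sites. The predicted unpaired probability of the ACA had one of 0.104, and 33 of 183 sites with the lowest values were little cut (18%) against 18 of 183 with the highest (9.84%). Another ACA within 30 bases was not more frequent at little-cut sites: they made up 20 of 170 sites with one upstream (11.8%) and 71 of 561 without (12.7%).

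**Figure D5:**
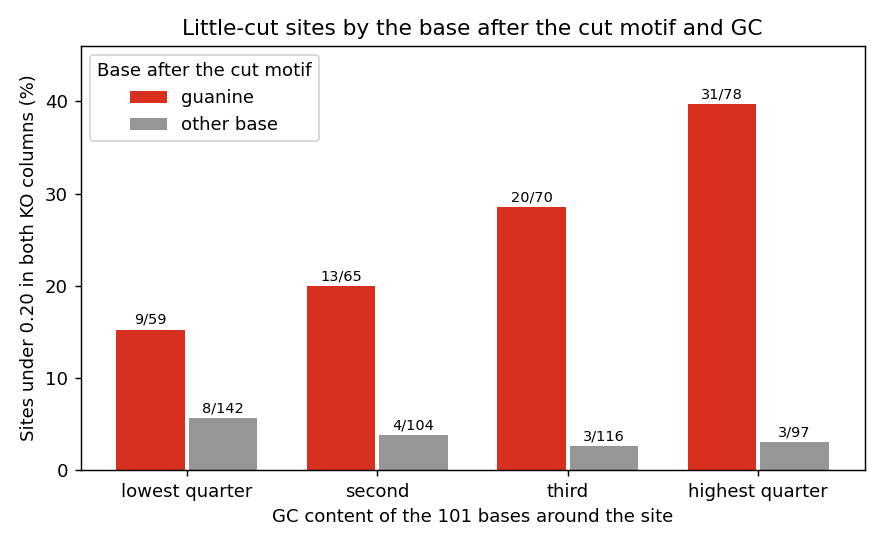
Share of sites under 0.20 in both KO columns (percent, vertical axis) by GC content within 50 bases of the site in 4 bins (horizontal axis), for guanine (red) and any other base (grey) after the cut motif, with the number little cut over the number of sites above each bar. The red bars go from 15.3% to 39.7% and the grey bars stay between 2.59% and 5.63%.

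By region, little-cut sites made up 13 of 65 in the 5′ UTR (20%), 37 of 411 in the CDS (9%) and 32 of 220 in the 3′ UTR (14.5%), and 9 of 35 in transcripts without a CDS. Guanine after ACA marked them in each: 11 of 28 against 2 of 37 in the 5′ UTR, 29 of 141 against 8 of 270 in the CDS and 26 of 88 against 6 of 132 in the 3′ UTR. The 5′ UTR had the lowest median KO mean, 0.632, against 0.853 in the CDS and 0.847 in the 3′ UTR. Sites within 100 bases of an exon junction were little cut in 21 of 239 cases (8.79%) and farther sites in 67 of 482 (13.9%). The deposited classes CellRep_low, CellRep_intermediate, CellRep_high and highest, whose making is not given, had shares of 15.6%, 13.2%, 15.1% and 9.84%. The median EB minus ESC difference lay between −0.00581 and 0.00326 for every base after ACA, class and coding-transcript region. It was 0.0181 for the 35 sites in transcripts without a CDS, of which 5 were higher by at least 0.10 and 8 lower. Sites with adenine after ACA had 7 higher and 22 lower of 184, and those with guanine 28 and 34 of 325. Sites with no gene name were little cut more often, in 29 of 114 cases (25.4%) against 91 of 731 (12.4%), and 46.5% of them had guanine after ACA against 37.2%.

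The 11 bases did not fix the level of cutting by themselves. A sequence shared by 2 or more sites occurred 79 times, covering 166 sites, and the median range of the KO mean within a sequence was 0.192 (interquartile range 0.0479 to 0.513). It was 0.336 for the 34 such sequences with guanine after ACA and 0.334 for the 13 with cytosine. For the 13 with thymine it was 0.151 and for the 19 with adenine 0.0409. The widest range, 0.851, lay between Mat2b, a subunit gene of methionine adenosyltransferase, and the kinase gene Mapk6. Mat2b was at 0.0816 in ESC and 0.0526 in EB, and Mapk6 at 0.95 and 0.886. Another sequence occurred in Sp1, a transcription factor gene, at 0.0339 and 0.0784, in Ahcy, the S-adenosylhomocysteine hydrolase gene, at 0.333 and 0.455, and in the importin gene Ipo9 at 0.857 and 0.839. These examples were chosen after their values were seen.
Mat2b CDS, chr11:40493539-40493549, minus strand: tggagACAGac
Mapk6 CDS, chr9:75245599-75245609, minus strand: tggagACAGac
Sp1 CDS, chr15:102261286-102261296, plus strand: cctggACAGtg
Ahcy 3′ UTR, chr2:154886082-154886092, minus strand: cctggACAGtg
Ipo9 3′ UTR, chr1:137281818-137281828, minus strand: cctggACAGtg

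Sites of the same gene share its transcripts, and 67 genes had 2 or more, with 139 sites in all. Both sites were lower in EB by at least 0.10 in Atad5, Gprasp1, Knop1 and Lrch4, and no gene had all its sites higher. Over all 845 sites 11.1% were lower and 7.1% higher, a split that depended on centring, and so few genes cannot show a direction. In Lrch4 the values were 0.492 and 0.348 in the CDS and 0.570 and 0.404 in the 3′ UTR; in Knop1 they were 0.872 and 0.764, and 0.870 and 0.718. Of these 67 genes 13 had a little-cut site. In 6 of the 13 it lay beside one at 0.80 or more in both stages: Arid1a, Ccnd1, Ilf2, Sp1, Sulf2 and Usp8. Over all 845 sites 48.8% were at 0.80 or more in both, so the count shows nothing particular to these genes. The CDS site of Ccnd1 was at 0.971 and 0.948 while its 3′ UTR site was at 0.139 and 0.136. Arid1a, a BAF chromatin remodelling subunit, had CDS sites at 0.899 and 0.905, 0.932 and 0.940, and 0.133 and 0.112. All sites were little cut in Cgas and Mbtps2, a site-2 protease gene. Of the other genes with 3 sites, Slc2a3, a glucose transporter, was cut to at least 0.862 throughout, and Ahnak had 2 little-cut sites and one at 0.618 and 0.565. The 3 sites of Fat1, a protocadherin, were at 0.919 and 0.918, 0.935 and 0.922, and 0.642 and 0.707.

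The counts of the gene lists stand beside 54 higher and 82 lower among all 731 sites with a gene name, whose median difference was 0. Their little-cut counts stand beside 91 of the same 731 sites (12.4%). The m6A pathway had 1 of 6 sites higher and 1 lower, both in Ythdf2, a reader that directs methylated RNA to decay: they were at 0.707 in ESC and 0.823 in EB, and at 0.732 and 0.612, while the other Ythdf2 site was at 0.924 and 0.895. Ythdf1 was at 0.921 and 0.949, the nuclear reader gene Ythdc1 at 0.952 and 0.956 and Prrc2a at 0.652 and 0.750. Both pluripotency sites differed by less than 0.10, with Tet1, a DNA demethylase gene, at 0.723 and 0.747 and the transcription factor gene Zfp281 at 0.879 and 0.810. Among 9 sites of differentiation, matrix and adhesion genes 1 was higher, in Hspg2, which encodes the basement membrane protein perlecan (0.740 and 0.90). The laminin genes Lamb1 (0.929 and 0.949) and Lamc1 (0.908 and 0.896) and the integrin gene Itgb1 (0.930 and 0.898) were almost fully cut in both stages.

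Of 31 sites in chromatin genes, 2 were higher and 4 lower, and their median difference was −0.0202. Chd4, of the NuRD complex, was at 0.793 and 0.906, and the remodelling ATPase gene Smarca5 at 0.845 and 0.949. Smarcb1, another BAF subunit, was at 0.928 and 0.796, Kat14 at 0.231 and 0.102, and Bptf, of the NURF complex, at 0.576 and 0.465. In the splicing list of 17 sites Hnrnpul1 was higher and the U2 snRNP gene Sf3a3 lower, at 0.233 and 0.108. The translation list had no site that differed by 0.10 among 20, from −0.0640 to 0.0792, and 3 little-cut sites, among them those of Eif5 and of the seryl-tRNA synthetase gene Sars (0.0116 and 0.00565). Cell cycle names gave 3 of 32 sites higher and 3 lower, with 5 little cut. The higher ones were in Cdc5l (0.487 and 0.662), Polr2b (0.218 and 0.366) and Polr3e (0.826 and 0.947), of which the latter pair encode subunits of RNA polymerases and entered by name alone. The centromere genes Cenpl (0.611 and 0.450) and Cenpb (0.574 and 0.459) were lower along with Kif14. Folding and degradation names gave 2 of 20 higher, among them Hspg2 by name alone, and 3 little cut, among them Pdia4 (0.0488 and 0.0402) and Usp8 (0.0714 and 0.0484). Mitochondrial and energy genes gave 1 of 8 higher, the carnitine carrier gene Slc25a20 (0.786 and 0.909), and 2 lower, Phb2 and the complex I gene Ndufs1 (0.696 and 0.568).

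The sites without both KO values were mostly those lacking an EB KO value. Of the 379 sites with an ESC KO value alone, 12.4% were under 0.20 and the median was 0.794. The 73 sites with an EB KO value alone had a median of 0.879, with 6.85% under 0.20. The shares among the 845 sites were 15.7% in ESC and 15.9% in EB. What decided whether a value was listed is not stated in the labels used here.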

How the data were processed

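The deposited table holds the authors' cleavage efficiencies, each a fraction from 0 to 1, beside the site's sequence, mm9 position and class. The submitters' processing notes list STAR 2.5.3a and bedtools 2.26.0. How reads were counted, filtered on depth and joined over libraries was not given in the sources used. The table held 0 value columns of no group. Differences were taken per site on the deposited fraction, with no filter; the planned test per library could not be run on 4 group columns, and no p-value is given. Sites were matched by their 11 bases to GENCODE M21 transcripts on the same chromosome and strand, within 100 bases of the deposited transcript position and 10 Mb of the genome position, and kept where a site of a different gene, among the 3 nearest on each side, had the same shift between builds. Of 1626 sites 1423 were named, and 731 of the 845. No coordinate was converted. The GC content covers 50 bases on each side, and unpaired probabilities come from RNAplfold (ViennaRNA 2.7.2) on 151 bases. Named sites were, with 1 per gene, the 12 largest differences each way, the 12 lowest and 5 highest KO means, the 5 little-cut sites with the highest WT means, genes with 3 sites, up to 3 per gene list and direction, sites nearest a limit and the 5 largest genotype differences of the stage effect each way; sites past 0.10 in both genotypes were added after seeing the data. Members and lists were chosen with earlier results of these data known. The counting code was tested on simulated data. Alternatives were another scale, centring, size, level filter and match. Some named sites are not reported here.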

Additional observations from a re-analysis of the deposited data

How the results depend on the processing

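No paired analysis was possible because each group has 1 column and no value per library; for the same reason no replicate could be left out and the replicate block was not run. On a logit scale, with fractions limited to 0.01 to 0.99 and a size of 0.4, the KO counts were 195 higher and 233 lower, the WT counts 358 and 85 and the WT median 0.358; the logit size takes in smaller fraction differences near 0 and 1. Subtracting column medians moved the KO median to 0.00834 and turned the WT median to −0.0549, with 52 sites higher and 180 lower. This subtraction removes any shift common to a whole column, so it cannot show whether such a shift belongs to the stage. A size of 0.20 left 10 KO sites higher and 15 lower. A limit of 0.10 left 75 little-cut sites. A limit of 0.30 raised the little-cut share to 35.7% with guanine after ACA, 13.6% in the CDS and 18% at 100 bases or more from a junction. Among sites with no gene name, an alternative added after seeing the data, the share was 39.6% with guanine and 13.1% with another base. That limit also gave 12.97% within 100 bases of a junction, 7.12% with another base than guanine and 26.2% in the 5′ UTR, where sites at the exact transcript position gave 27.6%. The other alternatives turned no direction. The unknown depth limits every single difference.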
